A study of Mus musculus with 5 samples.

Results

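Of 23361 gene symbols measured by RNA-seq in mouse hippocampus, 8 genes of neurotrophin signalling were examined. They were chosen by name: the ligands *Bdnf*, *Ntf3* and *Gdnf*, the receptors *Ntrk2*, *Ntrk3*, *Ngfr* and *Sort1*, and the transcription factor *Creb1*. All 8 were listed in every library. *Gdnf*, a ligand of the separate GDNF family that signals through the RET receptor, was included with the neurotrophins by that rule.

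Hippocampal tissue came from mice aged 3 months. Control mice (n = 2) were *Hdac1* f/f, with a floxed *Hdac1* gene and titles that call them WT, and *Hdac1* cKO mice (n = 3) were *Hdac1* f/f crossed to *Nestin-Cre*, so the floxed allele was shared by both groups. *Nestin-Cre* acts in neural progenitors, and the study describes the deletion in neurons and astrocytes, with HDAC1 still detectable in microglia. The genotype labels name *Nestin-Cre* for the cKO samples alone and do not say whether controls carried Cre, so an effect of the Cre transgene and one of the deletion cannot be told apart, and p-values measure the spread between these samples, which the study counts as mice.

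Neurotrophins are secreted growth factors that are made as precursors and cut to the mature form. BDNF acts mainly on TrkB (*Ntrk2*) and NT-3 (*Ntf3*) on TrkC (*Ntrk3*), receptor tyrosine kinases that signal through the Ras-MAPK, PI3K-Akt and PLCγ branches, while the p75 receptor (*Ngfr*) and sortilin (*Sort1*) together bind the uncut precursors. In the hippocampus BDNF and TrkB are known for their part in long-term potentiation and memory, and CREB (*Creb1*) is an activity-dependent activator of *Bdnf* and many other neuronal genes.

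The values are FPKM (sequenced fragments scaled to transcript length and to the mapped fragments of the library), and the libraries held an estimated 5140000 to 6770000 fragments each. *Hdac1* was at 8.95 and 13.1 FPKM in control against 1.95, 3.12 and 3.37 FPKM in cKO, 17.6% to 30.5% of the control mean, and differed by −1.66 in log2 fold change (SE 0.21, adjusted limma p = 0.219, exact permutation p = 0.1, the smallest possible). The libraries fell into 2 sets by the steps between their low values: control 1 and cKO 1 in the first set, and control 2, cKO 2 and cKO 3 in the second. With the set as a block the log2 fold change of *Hdac1* was −1.74 and passed correction (limma, adjusted p = 0.00389). What the sets stand for was not given in the sources used here, so differences within each set are given, with no p-value, for the tested members, *Hdac1* (−1.76 and −1.73) and the pathway genes with an unadjusted p under 0.05. The 10 hippocampal subfield markers, such as *Prox1* of the dentate gyrus, were all measured at 1 FPKM or more on average and summed to 198 to 237 FPKM per library. Choroid plexus markers differed widely between libraries of the same group, with sums of 166 and 6.33 FPKM in control against 74.7, 605 and 25.0 FPKM in cKO.

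The receptors *Ntrk2*, *Sort1* and *Ntrk3* stood above all 3 ligands in both genotypes, while the p75 receptor *Ngfr* was lower than *Bdnf* and *Ntf3*. Over the 5 libraries, mean levels per transcript length were 98.3 FPKM for *Ntrk2*, 76.1 for *Sort1*, 32.1 for *Ntrk3*, 9.71 for *Bdnf*, 8.65 for *Creb1*, 6.03 for *Ntf3*, 0.260 for *Ngfr* and 0.00873 for *Gdnf*. *Ntrk2* was higher than 93.7% of the 12740 genes that averaged 1 FPKM or more, *Sort1* than 91.8%, *Ntrk3* than 79.5%, *Bdnf* than 46.5%, *Creb1* than 43.0% and *Ntf3* than 32.7%. Neighbours in this order had ranges that did not overlap, except *Bdnf* with *Creb1* and *Creb1* with *Ntf3*. Between those neighbours the higher-ranked gene was still the higher one in each of the 5 libraries. *Ntrk2* varied least over the libraries, with a coefficient of variation of 4.68%, and *Ntf3* varied most among the 6 genes above 1 FPKM, at 28.1%.

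**Figure D1:**
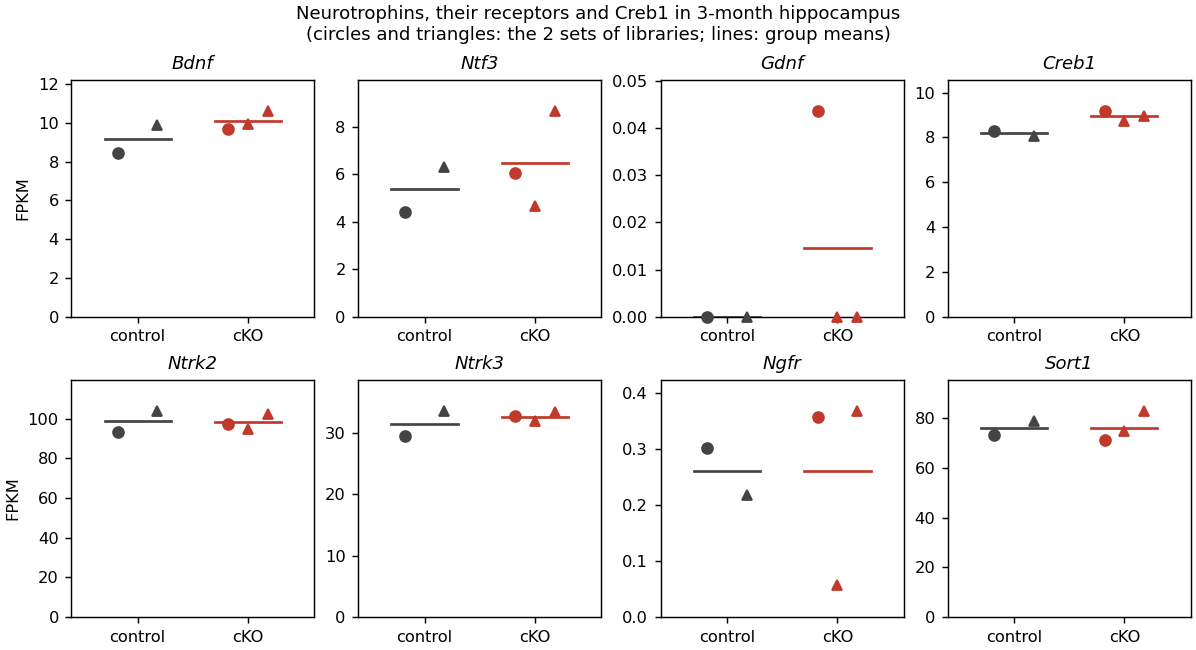
FPKM of the 8 genes (vertical axes, from 0, each with its own scale) in the 2 control and 3 cKO libraries. Each point is 1 library, circles and triangles are the 2 sets of libraries, and lines are group means. *Creb1* is the gene whose cKO points (8.75 to 9.19 FPKM) all lie above its control points (8.05 and 8.30 FPKM), while *Gdnf* lies at 0 in 4 of 5 libraries.

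The comparison of cKO with control asks whether loss of *Hdac1* changed these levels at 3 months. No member passed the test: 6 of 8 genes reached a mean of 1 FPKM and were tested with limma on log2(FPKM + 1), and 0 of these 6 had an unadjusted p under 0.05, a share that was 4.36% over all tested genes. None of the 6 passed the fold change of 1.5 with P under 0.05 that the study used as its threshold, which 0.659% of all tested genes did, and none had an adjusted p under 0.05, as did 0.00785% of all tested genes (1 gene). The median log2 fold change of the 6 was 0.086, against 0.015 over all tested genes, with 5 estimates above 0 and 1 below. After rescaling to a common total the 6 were 3 above and 3 below with a median of 0.025, and the median was 0.14 within the first set of libraries and 0.0085 within the second. All fold changes below were computed on log2(FPKM + 1), where changes of low genes come out too small, and in bulk tissue fewer cells of a type and less RNA per cell cannot be told apart.

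*Bdnf* (ENSMUSG00000048482.7) lies on the plus strand at chr2:109514857-109567204 in mm9, where 10 transcripts are annotated, and the deposited value covers them together. It encodes brain-derived neurotrophic factor. *Bdnf* was at 8.44 and 9.90 FPKM in control against 9.68, 9.92 and 10.6 FPKM in cKO. Control 1 was the lowest library, and control 2 lay among the cKO values, so the groups overlapped. The mean was 9.17 ± 1.04 FPKM (SD, n = 2) in control and 10.1 ± 0.484 FPKM in cKO (SD, n = 3). As a log2 fold change this was 0.13 (SE 0.12, 95% interval −0.15 to 0.40, limma p = 0.319, adjusted p = 0.960), and the two-sided exact permutation test of the means gave p = 0.3. The interval corresponds to 90.4% to 132% of the control level, computed on FPKM + 1 here and for the other members. Within the sets the difference was 0.18 and 0.047, and single controls set its size: it was 0.022 without control 1 and 0.23 without control 2. These values rest on an estimated 218 to 286 *Bdnf* fragments per library.

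Bdnf transcription starts at several promoters, and RefSeq (GRCm38.p6) lists 7 of them, numbered here in their order along the gene. These numbers are not the published names of the *Bdnf* promoters and need not match them. The promoter windows were searched because *Bdnf* is a known CREB target and because the study examined guanine-rich promoters. The study's own motif search covered genes changed in aged mice and a wider window on both sides of the start. The letters searched on both strands were GGGCGG, the core of the GC box bound by Sp1-family factors, and TGACG, a half-site of the cAMP response element (CRE) bound by CREB, with TGACGTCA as the full CRE, which contains the half-site. In the 250 bases before the start site, *Bdnf* promoters 2 and 4 held GGGCGG, promoter 3 held TGACG, and none of the 7 held the full element. Promoter 2 is shown over its last 120 bases before the start (chr2:109676912-109677031, GRCm38.p6, plus strand) with GGGCGG in capitals, and promoter 3 likewise (chr2:109692316-109692435, GRCm38.p6, plus strand) with TGACG in capitals. All of these matches lie on the opposite strand and therefore read CCGCCC and CGTCA.
Bdnf promoter 2: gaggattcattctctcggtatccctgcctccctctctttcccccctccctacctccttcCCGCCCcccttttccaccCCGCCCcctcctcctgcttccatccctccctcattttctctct
Bdnf promoter 3: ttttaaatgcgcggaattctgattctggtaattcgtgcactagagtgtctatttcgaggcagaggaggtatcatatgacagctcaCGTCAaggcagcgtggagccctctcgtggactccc
The 2 matches in promoter 2 begin 61 and 43 bases before the start, and the match in promoter 3 begins 35 bases before it.

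*Ntf3* (ENSMUSG00000049107.7, minus strand, chr6:126051431-126116762, mm9) encodes neurotrophin-3, which in the adult hippocampus is best known from dentate granule cells. It was at 4.41 and 6.32 FPKM in control against 6.07, 4.67 and 8.67 FPKM in cKO. Control 1 was again the lowest library, cKO 3 the highest, and the groups overlapped. The log2 fold change was 0.21 (SE 0.23, 95% interval −0.32 to 0.74, limma p = 0.386, adjusted p = 0.971, exact permutation p = 0.5). The interval, 80.1% to 167% of the control level, was the widest of the 6 tested members and includes a change of 1.5-fold upward. An estimated 34.3 to 78.0 fragments per library stood behind the value. By set, the difference was 0.39 and 0.016, and without control 1 it was −0.0063.

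*Gdnf* (ENSMUSG00000022144.3, plus strand, chr15:7761011-7787575, mm9) was listed at 0 in both controls and in cKO 2 and cKO 3. It was at 0.0436 FPKM in cKO 1, about 1.04 fragments, so the gene was not detectable in 4 libraries at this depth and no fold change was formed. Of its receptors, *Ret* was below the level tested, at 0.738 and 0.743 FPKM in control against 0.606, 0.495 and 0.581 FPKM in cKO.

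*Ntrk2* (ENSMUSG00000055254.7, plus strand, chr13:58907957-59235331, mm9) encodes TrkB, which exists as a full-length kinase form, mainly of neurons, and a truncated form without the kinase that is abundant in astrocytes. The deposited value does not separate the 5 annotated transcripts. *Ntrk2* was at 93.2 and 104 FPKM in control against 97.4, 94.9 and 102 FPKM in cKO. All 3 cKO libraries lay between the 2 controls. The mean was 98.5 ± 7.48 FPKM in control (SD, n = 2) and 98.2 ± 3.79 FPKM in cKO (SD, n = 3), with a log2 fold change of −0.0038 (95% interval −0.23 to 0.22, limma p = 0.970, adjusted p = 0.997, exact permutation p = 1). Changes beyond 85.5% or 116% of the control level lie outside that interval, and the sign of the estimate differed between sets (0.062 and −0.075).

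*Ntrk3* (ENSMUSG00000059146.6, minus strand, chr7:85337248-85723294, mm9) encodes TrkC. Its level was 29.4 and 33.5 FPKM in control against 32.6, 31.8 and 33.3 FPKM in cKO, again with every cKO library between the controls. The log2 fold change was 0.053 (SE 0.10, 95% interval −0.18 to 0.29, limma p = 0.615, adjusted p = 0.981, exact permutation p = 0.7). Within the sets it had opposite signs, 0.15 and −0.040.

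*Sort1* (ENSMUSG00000068747.7, plus strand, chr3:108087009-108164429, mm9) encodes sortilin, a sorting receptor that also routes BDNF to regulated secretion. It was at 73.2 and 78.7 FPKM in control against 71.0, 74.8 and 82.9 FPKM in cKO. The cKO libraries held both the lowest and the highest value. The log2 fold change was 0.0032 (95% interval −0.24 to 0.24, limma p = 0.976, adjusted p = 0.998, exact permutation p = 1), or 85.0% to 118% of the control level. By set it was −0.043 and 0.00072, and its sign turned with several ways of scaling, among them a common total for every library (−0.063). Of its exons, 329 bases overlap *Gm12523* on the opposite strand, and whether counting used strand was not stated, so reads there cannot be assigned.

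*Ngfr* (ENSMUSG00000000120.6, minus strand, chr11:95430132-95449049, mm9) encodes the p75 receptor, which in the adult forebrain is found mainly on basal forebrain cholinergic neurons whose cell bodies lie outside the hippocampus. It was at 0.301 and 0.218 FPKM in control against 0.356, 0.0561 and 0.367 FPKM in cKO. That is about 0.994 fragments in cKO 2 and 4.95 to 8.30 in the other libraries, too few to compare the groups, and the gene was not tested. The groups overlapped, with the lowest and highest values both in cKO libraries. The 5 markers of cholinergic neurons were likewise at or near 0. They summed to 0.119 to 0.413 FPKM per library, and *Lhx8* was listed at 0 in all 5.

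*Creb1* (ENSMUSG00000025958.7, plus strand, chr1:64579378-64651121, mm9) was at 8.30 and 8.05 FPKM in control against 9.19, 8.75 and 8.97 FPKM in cKO. Every cKO library was above both controls, which among the 6 tested members was so for *Creb1* alone. Over all tested genes, groups did not overlap in 20.4%, with the cKO libraries higher in 11.0% and lower in 9.41%, so 1 of 6 is near the background. Group means were 8.17 ± 0.181 FPKM (SD, n = 2) and 8.97 ± 0.22 FPKM in cKO (SD, n = 3). The exact permutation test gave p = 0.1, the smallest that 2 against 3 libraries allow, and limma gave a log2 fold change of 0.12 (SE 0.11, 95% interval −0.13 to 0.37, p = 0.299, adjusted p = 0.956). The difference was 0.13 and 0.12 within the sets, 0.10 to 0.14 when each library was left out in turn, and 0.063 after rescaling every library to the same total.

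**Figure D2:**
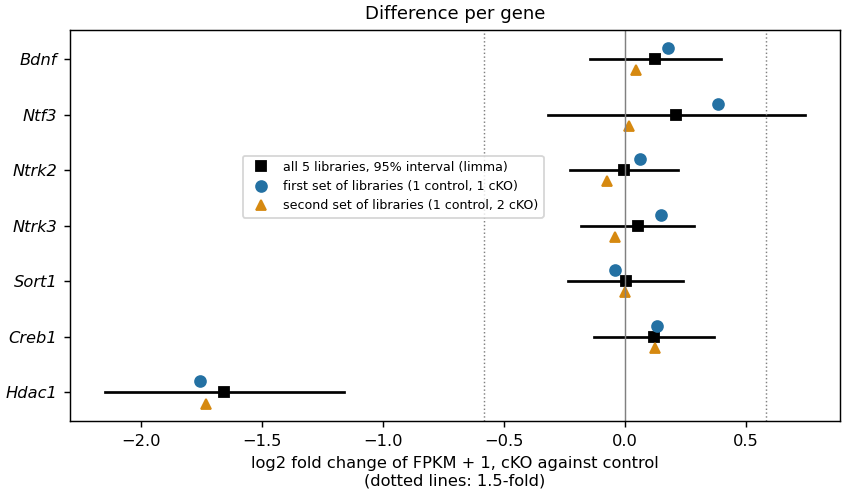
Log2 fold change of FPKM + 1, cKO against control (horizontal axis), for the 6 tested members and *Hdac1*. Squares and bars are limma estimates over all 5 libraries with 95% intervals, circles and triangles the differences within each set of libraries, and dotted lines mark a 1.5-fold change. All 6 member intervals cross 0, from *Ntrk2* at −0.0038 to *Ntf3* at 0.21, while the interval of *Hdac1* lies around −1.66.

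The promoter windows of *Creb1*, *Ntf3* and *Ngfr* are shown because each holds the GC-box core while the genes differ widely in level, from 8.65 FPKM for *Creb1* to 0.260 FPKM for *Ngfr*. RefSeq (GRCm38.p6) held 14 promoters of 6 members, and entries for *Ntrk3* and *Sort1* were missing. Each window is the last 120 bases before the start site, read 5′ to 3′ along the gene, with GGGCGG or its reverse complement CCGCCC in capitals: *Creb1* at chr1:64532684-64532803 (plus strand), the second *Ntf3* promoter at chr6:126166745-126166864 (minus strand) and *Ngfr* at chr11:95587699-95587818 (minus strand).
Creb1: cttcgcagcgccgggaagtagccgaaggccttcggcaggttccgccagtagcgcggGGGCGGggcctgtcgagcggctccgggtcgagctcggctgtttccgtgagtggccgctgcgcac
Ntf3 promoter 2: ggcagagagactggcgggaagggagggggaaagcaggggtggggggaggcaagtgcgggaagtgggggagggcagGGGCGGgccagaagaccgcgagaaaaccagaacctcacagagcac
Ngfr: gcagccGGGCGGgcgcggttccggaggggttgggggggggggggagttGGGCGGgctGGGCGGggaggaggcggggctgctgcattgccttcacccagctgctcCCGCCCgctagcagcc
*Ngfr* carried 4 such matches and *Creb1* and *Ntf3* promoter 2 carried 1 each. Over the 250 bases before the start, 6 of the 14 member promoters held GGGCGG, against 32.7% of the 32851 promoters in the table. TGACG was in 2 of 14 (*Bdnf* promoter 3 and *Gdnf* promoter 1), against 17.8% of all, and TGACGTCA in 0 of 14, against 1.55%. Of these 14 windows 7 belong to *Bdnf*, and a match is a description of letters, not a binding site.

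Ratios between members within a library do not depend on how that library was scaled. They were added after the single genes had been seen, 4 in all. *Bdnf* was 9.05% and 9.54% of *Ntrk2* in control against 9.95%, 10.5% and 10.4% in cKO, without overlap (exact permutation p = 0.1, the smallest possible, Benjamini-Hochberg adjusted p = 0.4). *Ntrk3* was 31.5% and 32.3% of *Ntrk2* in control against 33.5%, 33.6% and 32.6% in cKO, also without overlap (exact permutation p = 0.2, adjusted p = 0.4). Both ratios were thus slightly higher in every cKO library, and neither passed the test. They share *Ntrk2* as denominator, so they are not separate observations. Of single tested genes 20.4% did not overlap between groups, and the share over all ratios was not computed. *Sort1* to *Ntrk2* and *Ntf3* to *Bdnf* overlapped between groups, each with an adjusted exact permutation p of 0.9.

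The genes whose values ran most like those of *Bdnf* over the 5 libraries were *Ddost*, *Slc24a2* and *9130401M01Rik*. They were ranked by the mean absolute difference of their centred log2(FPKM + 1) values from those of *Bdnf*, among 11978 genes, and differed by 0.0125, 0.0138 and 0.0145, against a range of 0.30 for *Bdnf* itself. *Ddost*, for example, was at 48.8 and 55.9 FPKM in control against 56.1, 56.3 and 61.0 FPKM in cKO, with the same library lowest and the same library highest as *Bdnf*. With 5 libraries and so many genes, likeness of this size is a description only.

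The rest of the pathway was followed in 12 lists by role, 158 genes in all, of which 144 were tested. At an unadjusted limma p under 0.05, 7 of the 144 (4.86%) passed, close to the 4.36% of all tested genes. All 7 were lower in cKO, a direction noted after the values were seen, against 1.99% of all tested genes called lower. Each of the 7 had an adjusted p of 0.955, so none passed correction, and the median log2 fold change of the 144 was −0.027. Those 7 lower genes were *Lingo1* and *Rtn4r* among the p75 partners, *Vgf* and *Per1* among CREB targets, *Camk2d* in the calcium branch, *Rps6ka2* in the Ras-MAPK branch and *Mef2d* among regulators of *Bdnf*. The control and cKO libraries did not overlap in any of them, which picking genes by p in these same libraries makes likely. Over the 144 genes, groups did not overlap in 21 lower (14.6%) and 11 higher genes (7.64%), against 9.41% and 11.0% of all tested genes. Each of the 7 had an unadjusted limma p above 0.05 without at least 1 of the libraries, and *Rps6ka2* whichever library was left out. The count was sensitive to single libraries: without control 1 it was 3 lower and 1 higher, 2 of them among the 7, and without cKO 1 it was 10 lower and 2 higher. The calls over all genes moved likewise, with 2.78% of the pathway against 3.30% of all tested genes without control 1 and 8.39% against 7.61% without cKO 1. With the set of libraries as a block, 13 were lower and 5 higher, including all 7, which is 12.5% of the 144 in a fit that called 9.34% of all tested genes.

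**Figure D3:**
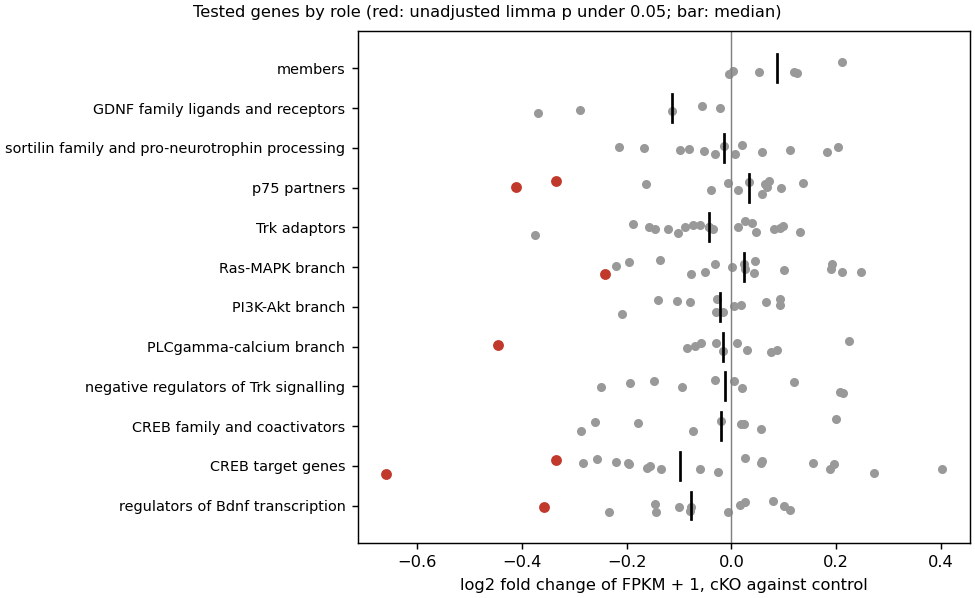
Log2 fold change of FPKM + 1, cKO against control (horizontal axis), of tested genes by role in 11 of the lists, with the members in the top row. Each point is 1 gene, red points have an unadjusted limma p under 0.05, and bars are list medians. The 7 red points all lie below 0, from *Vgf* at −0.66 to *Rps6ka2* at −0.24, and no member is red.

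Neurotrophin-4 (*Ntf5*), a further ligand of TrkB, did not exceed 0.193 FPKM in any library and was not tested. Of the GDNF family and its receptors, 5 of 9 were tested and none had an unadjusted p under 0.05, including *Ncam1* (log2 fold change −0.11) and *Gfra4* (−0.057). Of the sortilin relatives and processing enzymes 13 of 16 were tested, also with none. The most abundant gene of all the pathway lists, *Cpe*, a carboxypeptidase that also sorts pro-BDNF, was at 1609 and 1614 FPKM in control against 1804, 1654 and 1769 FPKM in cKO. Each cKO library was above both controls, by 0.11 on average on the log2 scale (adjusted limma p = 0.962, exact permutation p = 0.2). On a common total the difference was 0.045 and the groups overlapped. *Serpini1*, an inhibitor of tissue plasminogen activator, had a log2 fold change of −0.031, and *Plg*, which encodes plasminogen, was listed at 0 in every library.

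Among 13 tested p75 partners 5 estimates were below 0 and 8 above, and 2 of those below had an unadjusted p under 0.05. These were *Lingo1* and *Rtn4r*, known as p75 co-receptors for myelin inhibitors. *Lingo1* was at 25.3 and 27.4 FPKM in control against 22.0, 17.1 and 19.9 FPKM in cKO (log2 fold change −0.41, limma p = 0.0107, adjusted p = 0.955, exact permutation p = 0.1). *Rtn4r*, the Nogo receptor, was at 30.9 and 28.4 FPKM in control against 25.8, 20.0 and 24.5 FPKM in cKO (−0.34, limma p = 0.0306, adjusted p = 0.955, exact permutation p = 0.2). Both were lower in every cKO library than in either control, with differences of −0.20 and −0.55 within the sets for *Lingo1* and −0.26 and −0.34 for *Rtn4r*. The death-signalling adaptors *Maged1* (−0.040) and *Ngfrap1* (0.012) had estimates close to 0.

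Downstream of the Trk receptors, 0 of 20 adaptors, 1 of 17 Ras-MAPK genes, 0 of 12 PI3K-Akt genes and 1 of 11 PLCγ and calcium genes had an unadjusted p under 0.05. *Crk* (0.081), *Shc3* (−0.073), *Map2k1* (0.0017) and *Akt1* (0.019), which are among the most abundant genes of the first 3 of these lists, all had log2 fold changes within 0.1 of 0. *Rps6ka2*, a kinase of the RSK family, was at 13.8 and 14.4 FPKM in control against 11.4, 12.2 and 11.7 FPKM in cKO (−0.24, limma p = 0.0485, adjusted p = 0.955, exact permutation p = 0.1). *Camk2d* was at 9.62 and 12.3 FPKM in control against 7.88, 8.0 and 7.29 FPKM in cKO (−0.45, limma p = 0.00949, adjusted p = 0.955, exact permutation p = 0.1). The cKO libraries lay close together in both genes, below both controls. The difference in *Rps6ka2* was −0.25 in either set, while that in *Camk2d* was −0.26 and −0.62 by set and −0.29 without control 2. The abundant forms of the same kinase, *Camk2a* (−0.069) and *Camk2b* (−0.086), overlapped between groups. Of 10 negative regulators of Trk signalling none had an unadjusted p under 0.05, and *Ptprs* and *Spred1*, the most abundant, were at −0.095 and 0.12.

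At the level of CREB, 0 of 9 family members and coactivators had an unadjusted p under 0.05, with *Creb3* at 0.025 and the coactivator *Crtc1* at −0.26 (limma p = 0.0951, adjusted p = 0.955, exact permutation p = 0.3). With the set as a block 2 of the 9 were lower at that threshold, *Crtc1* among them, in a fit that called 4.02% of all tested genes lower. *Crtc1* was also under that threshold on a common total, while without control 1 it was at −0.097. Of 20 tested CREB target genes 12 estimates were below 0 and 8 above, with a median log2 fold change of −0.098 (0.030 and −0.16 within the sets), and 2 of those below and 0 of those above had an unadjusted p under 0.05. *Vgf*, a secreted neuropeptide precursor known to be induced by neurotrophins, was at 33.7 and 24.9 FPKM in control against 22.6, 13.8 and 18.5 FPKM in cKO. Both controls were above all cKO libraries, averaging 29.3 ± 6.19 FPKM (SD, n = 2) and 18.3 ± 4.40 FPKM (SD, n = 3). At a log2 fold change of −0.66 (limma p = 0.0115, adjusted p = 0.955, exact permutation p = 0.2) it was the 1 pathway gene past the 1.5-fold threshold of the study. It was −0.55 and −0.61 within the sets and −0.45 without control 1, where the unadjusted p was above 0.05. *Per1*, a clock gene with CRE sites, was at 7.07 and 6.38 FPKM in control against 6.03, 4.50 and 4.93 FPKM in cKO (−0.33, limma p = 0.0479, adjusted p = 0.955, exact permutation p = 0.2). The 2 most abundant targets, the neuropeptide gene *Sst* (−0.16) and the granin gene *Scg2* (0.27), had no unadjusted p under 0.05 but did with the set of libraries as a block. Both depended on single controls, *Sst* running from −0.25 without control 1 to −0.063 without control 2 and *Scg2* from −0.017 to 0.56. Within the sets *Per1* was at −0.20 and −0.37. Among 13 regulators of *Bdnf* transcription, *Mef2d*, an activity-dependent factor, was at 27.0 and 22.8 FPKM in control against 21.6, 18.1 and 17.9 FPKM in cKO (−0.36, limma p = 0.0228, adjusted p = 0.955, exact permutation p = 0.2), while *Usf1* and *Usf2* were at 0.10 and −0.078. Within the sets *Mef2d* was at −0.31 and −0.32, and it was at −0.24 without control 1.

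**Figure D4:**
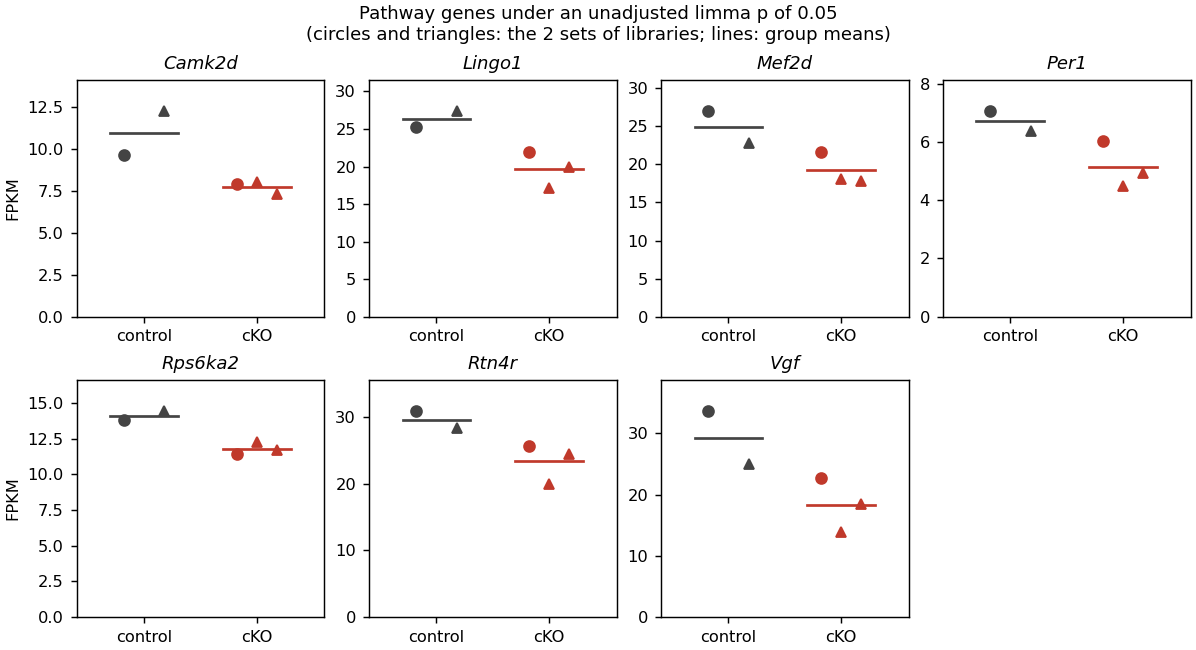
FPKM (vertical axes, from 0) of the 7 pathway genes with an unadjusted limma p under 0.05 in the 2 control and 3 cKO libraries. Points are libraries, circles and triangles the 2 sets, and lines group means. In each gene all 3 cKO libraries lie below both controls, as in *Vgf* with 13.8 to 22.6 FPKM against 24.9 and 33.7 FPKM.

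Markers of several cell types also had unadjusted p-values under 0.05, as had 1.99% of all tested genes as lower and 2.37% as higher. Of 15 neuron markers 3 were lower at an unadjusted p under 0.05, including *Syn1* (log2 fold change −0.40) and *Stmn2* (−0.24), each with an adjusted limma p of 0.955, and 14 of 15 estimates were below 0 with a median of −0.13. Their summed levels overlapped, at 3038 and 3310 FPKM in control against 3017, 2880 and 3197 FPKM in cKO. Of 15 astrocyte markers 2 were higher at an unadjusted p under 0.05, *Aqp4* (0.78, limma, adjusted p = 0.175) and *Gfap* (0.43, adjusted p = 0.955). Of the 15 estimates 11 were above 0 and 4 below, with a median of 0.13 (0.063 on a common total). The summed levels of this list did not overlap, at 4649 and 4595 FPKM in control against 4888, 4904 and 5000 FPKM in cKO. As a share of the total FPKM of each library they did overlap, at 0.798% and 0.813% in control against 0.768%, 0.836% and 0.859% in cKO. With the set as a block *Aqp4* passed correction (limma, adjusted p = 0.0187), and 7 astrocyte markers were higher and 4 neuron markers lower at an unadjusted p under 0.05, in a fit that called 5.32% of all tested genes higher and 4.02% lower. *Ntrk2*, which both cell types express, had group means of 98.5 and 98.2 FPKM. All 6 tested markers of neighbouring cortex and thalamus had estimates below 0, with *Tshz2* (−0.96, limma, adjusted p = 0.601) and *Tbr1* (−0.53, adjusted p = 0.955) at an unadjusted p under 0.05, and the list summed to 50.5 and 54.3 FPKM in control against 39.4, 34.9 and 33.5 FPKM in cKO. *Opalin* of oligodendrocytes (0.25) and *Ogn* of leptomeningeal fibroblasts (0.34) were higher at an unadjusted p under 0.05, and 0 of 7 oligodendrocyte precursor, 10 microglia and 9 endothelial or mural markers passed. On a common total *Opalin* and *Ogn* had an unadjusted p above 0.05. So had *Ogn*, *Syn1*, *Stmn2*, *Gfap* and *Tbr1* without at least 1 of the libraries, and *Opalin* whichever library was left out. *Aqp4* and *Tshz2* stayed under 0.05 in every such fit. The part of these shifts in the 7 lower pathway genes was not tested.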

How the data were processed

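RNA-seq of hippocampal total RNA was analysed in 2 control and 3 *Hdac1* cKO samples, grouped by title and genotype label. The authors deposited FPKM per gene symbol, 1 file per sample. The submitters' processing notes name TopHat, Bowtie, Cufflinks 2.0.0 and mm9, and reads were collapsed before alignment per the study's methods. FPKM are not counts, so no count test was used. Use of strand was not stated.

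The 12740 genes that averaged 1 FPKM or more were tested with limma 3.58.1 in R 4.3.3 (lmFit, eBayes with trend) on log2(FPKM + 1), pseudocount 1, genotype as the only term, all samples in one two-sided fit, with Benjamini-Hochberg adjustment over all tested genes. This replaces the study's own test, which it did not name. The procedure was tested on simulated data. Exact permutation tests used scipy 1.17.1 on the absolute difference in means over all 10 divisions of the 5 samples, so the smallest p is 0.1. For sets of libraries, genes under 0.3 FPKM were used: 24.6% to 28.4% of them lay in the fullest window of 0.05 log2 units of the ratio within sets, against 3.71% to 4.64% across sets. Fragments were estimated from the value of 1 fragment in low genes with single transcripts (28 to 75 genes per sample) and are approximate, so no interval was derived from them. Gene coordinates and overlaps are from GENCODE vM1 (mm9), which holds 21207 of the 23361 symbols (90.8%), and promoters are from RefSeq (GRCm38.p6). The builds were not mixed.

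The members and gene lists were chosen with earlier results of these data known. Named were the 8 members, *Hdac1*, of each pathway list the 2 genes with the highest mean and up to 4 with an unadjusted p under 0.05, of each marker list up to 2 such genes and defining markers near 0, and the 3 genes most like *Bdnf*, with a range of at least 0.5 times its own. Some genes that this rule names are not reported here. *Ret* and *Plg* were named after their values were seen. Alternatives were a pseudocount of 0.1, no filter or a minimum mean of 5 FPKM, quantile normalization, median-ratio size factors, a common total (TPM), no variance trend, a replicate block, a set block, and leaving out each sample.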

Additional observations from a re-analysis of the deposited data

How the results depend on the processing

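Under 14 other settings of the test, 0 of the members had an unadjusted p under 0.05 or passed the study's threshold. *Bdnf* ranged from 0.022 (without control 1) to 0.23 (without control 2), and *Creb1* from 0.063 to 0.14. Estimates near 0 changed sign: *Sort1* was −0.049 with quantile normalization, −0.012 with median-ratio factors, −0.063 with TPM and −0.018 with the set block, and *Ntrk3* was −0.012 with TPM and 0.15 and −0.040 within the sets. Leaving out each library gave −0.0063 to 0.43 for *Ntf3* (lowest without control 1), −0.081 to 0.073 for *Ntrk2* (0.073 without control 2, 0.020 without cKO 2, 0.0019 without cKO 1), −0.039 to 0.15 for *Ntrk3* (lowest without control 1) and −0.058 to 0.054 for *Sort1* (below 0 without cKO 3, −0.058, or control 1, −0.048). Pathway genes at an unadjusted p under 0.05 numbered 18 with the set block (12.5%, and 9.34% of all genes) and 4 (without control 1, 2.78% and 3.30%) to 12 (without cKO 1, 8.39% and 7.61%) with a library left out. Rescaling to TPM moved the calls over all genes from 302 higher and 253 lower to 132 higher and 463 lower, with a median log2 fold change of −0.047.

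Groups shared replicate numbers but no label says what a number marks. Same-numbered samples deviated together from their group means (r = 0.402 for number 1 and r = 0.269 for number 2). With 2 controls the deviations of one mirror those of the other, so these values are not separate observations. Control 2 with cKO 3, which differ in number, was also positive (r = 0.15). Each same-numbered pair also lies in 1 set. Number 3 occurs in cKO alone, so cKO 3 adds nothing to a fit with the replicate block, and its estimates equal those without cKO 3. With that block *Hdac1* was −1.77 (limma, adjusted p = 0.0115, and −1.74 with adjusted p = 0.00389 with the set block) and *Sort1* was −0.058. At an unadjusted p under 0.05 were 21 pathway genes (14 lower, 7 higher, all 7 of the main result among them), or 14.6%, where 11.2% of all genes were. *Aqp4* passed correction (limma, adjusted p = 0.0249). At an unadjusted p under 0.05, 8 neuron markers were lower and 1 higher, and 4 astrocyte markers were higher and 0 lower. The same fit called 5.31% of all genes lower and 5.91% higher. The replicate block changed no other call on the members. Depth limits *Gdnf* and *Ngfr*, which had under 10 estimated fragments per library.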
